A study of Mus musculus with 4 samples.

Results

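The mRNA of 10 chemokine genes was followed in mouse bone marrow derived macrophages with and without the transcription factor RBP-J. The genes were Ccl2, Ccl3, Ccl4, Ccl6, Ccl7, Ccl8, Ccl9, Ccl12, Cxcl2 and Cxcl16, chosen by symbol from the 22026 gene symbols in the tables, and all 10 had exactly 1 entry in every library. The 4 libraries came from C57BL/6 mice of 8 weeks: 2 from mice labelled wildtype control (WT) and 2 from mice labelled Rbpj f/f;LysM cre (RBP-J KO), in which a loxP-flanked Rbpj is deleted by a Cre recombinase expressed from the lysozyme M locus of myeloid cells. The labels do not say whether the controls carried the Cre or the floxed allele. All marrow was cultured for 3 days in CMG14-12 supernatant, equivalent to 20 ng/ml of the macrophage growth factor M-CSF, with no further stimulus named. The comparison asks which mRNA levels RBP-J regulates in these cells.

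Chemokines are small secreted proteins that guide leukocytes along a gradient through G protein-coupled receptors. Macrophages are a main source of those that draw in monocytes (Ccl2, Ccl7, Ccl12), of ligands of Ccr1 (Ccl3, Ccl6, Ccl9), of Ccl4, and of the neutrophil attractant Cxcl2. Several of their genes are classical targets of NF-kB and AP-1, and many of the transcripts are short-lived. Cxcl16 differs from the rest in that it is made as a membrane-anchored protein, which also binds oxidised lipoprotein and is released by proteases.

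Values were read as FPKM (fragments per kilobase of transcript, scaled to the number of mapped fragments). No unit is named with them, so their absolute scale is uncertain. There was 1 gene table per replicate 1 library and 1 transcript table per replicate 2 library, and the read depth is unknown. Because the replicate numbers differ in table layout, each RBP-J KO library was set against the WT library of the same number; these are called pair 1 and pair 2. No label says that the replicates came from separate mice, so each p-value reflects only how far these libraries spread, which may be technical. Rbpj itself reached 355 and 573 FPKM in WT replicates 1 and 2, against 51.5 and 77.0 FPKM in the matching RBP-J KO libraries, lower in both as labelled. The macrophage genes Csf1r and Cd68 were above 2287 FPKM in every library, and none of the 10 macrophage markers was at 0. The summed level of 11 neutrophil markers was 7088 and 361 FPKM in WT replicates 1 and 2, against 8434 and 1173 FPKM in RBP-J KO. The sum was thus far higher in the replicate 1 libraries of both genotypes, and higher in RBP-J KO than in WT in both pairs. Not every marker followed the sum in pair 1. Ltf was at 291 FPKM (WT) and 283 FPKM (RBP-J KO) there, Ngp at 1209 and 1176 FPKM, and Mmp8 at 108 and 84.8 FPKM.

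Most of the chemokines were lower without RBP-J, and 1 was higher. Of the 10 genes, 9 were lower in RBP-J KO in both pairs, where 34.1% of the 11851 genes tested were, and Cxcl16 was higher in both pairs, where 25.1% of genes were. The 10 were chosen with earlier results of these data known, so counts beside such shares are descriptions and not a test. A difference of at least 1.5-fold on the log2(FPKM + 1) scale was found in both pairs for 4 lower chemokines (Ccl6, Ccl7, Ccl8 and Ccl9; background 3.63%) and for 1 higher chemokine (Cxcl16; background 3.86%). For 6 of the 10 (Ccl2, Ccl4, Ccl7, Ccl9, Ccl12 and Cxcl2) both RBP-J KO libraries lay below both WT libraries, which held for 18.2% of genes; for 0 of the 10 were both above, which held for 11.7%. The median log2 difference (RBP-J KO minus WT) over the 10 chemokines was -1.29, beside -0.05 over all genes tested. It was -1.81 in pair 1 and -0.57 in pair 2, so the size of the difference depended on the pair. None of the 10 had opposite signs in the pairs, where 39.4% of genes did. Within pair 1 alone 6 chemokines were at least 1.5-fold lower (background 12.1%) and 1 was higher (background 10.3%), and within pair 2 alone 5 were lower (background 8.18%) and 1 was higher (background 6.48%).

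No chemokine passed the test. In limma with Benjamini-Hochberg adjustment over 11851 genes, 0 of 10 had an adjusted p under 0.05, as did 0.0% of all genes in either direction. The smallest adjusted p among the chemokines was 0.585, for Ccl9. This fit had group as its only term, so differences between the replicate numbers add to its error. A fit with the replicate number as a block, described at the end, also had 0 of 10 under 0.05. At an unadjusted p under 0.05 there were 2 chemokines, Ccl9 and Ccl7, both lower, where 2.24% of genes were lower by that rule and 524 genes passed it in either direction. The directions below are therefore descriptions of these 4 libraries.

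**Figure D1:**
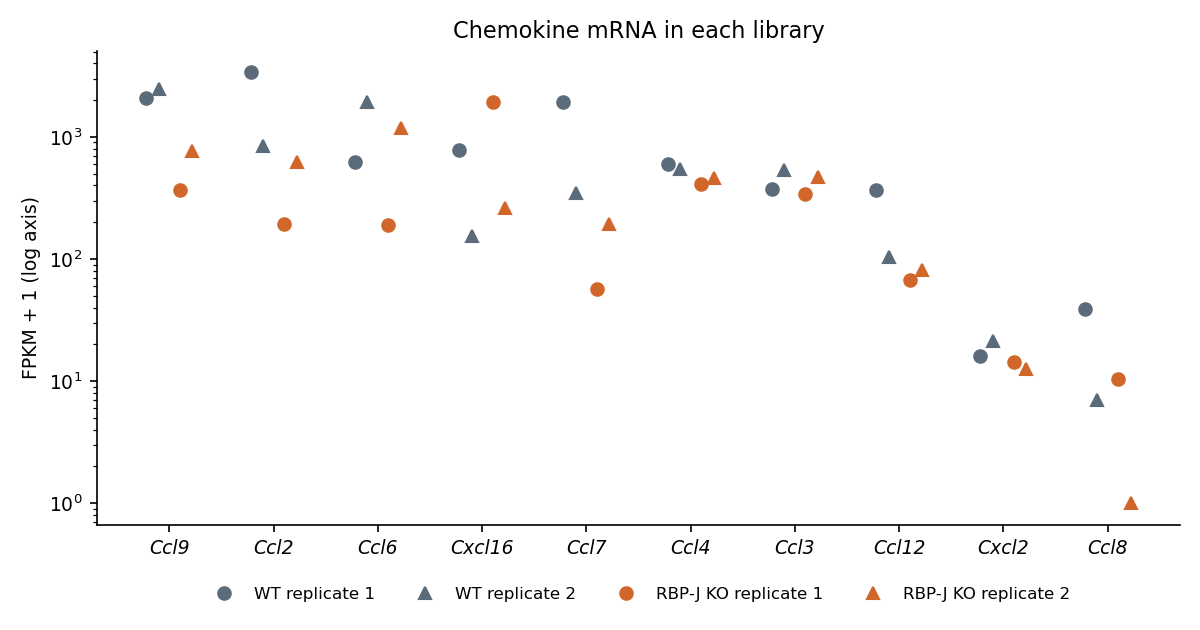
FPKM + 1 of each chemokine (log axis) in the 4 libraries, ordered by mean level; grey points are WT, orange points RBP-J KO, circles replicate 1 and triangles replicate 2. For Ccl9 both orange points lie below both grey points with a wide gap, for Ccl3 and Ccl4 the 4 points lie close together, and for Cxcl16 the replicate 1 points lie far above the replicate 2 points.

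The monocyte attractants encoded side by side on chromosome 11 were lower in both pairs, with Ccl2, Ccl7 and Ccl12 far more so in pair 1. Ccl2, the principal ligand of Ccr2, measured 3384 FPKM (WT) and 191 FPKM (RBP-J KO) within pair 1, then 845 and 622 FPKM in pair 2. Values of a pair are given in that order, WT first, throughout. The level was thus 17.7-fold lower in pair 1 and 1.36-fold lower in pair 2. Over the 4 libraries the log2 difference was -2.29 with a standard error (SE) of 0.89 (adjusted p = 0.999, limma with Benjamini-Hochberg). The groups did not overlap, but the WT libraries themselves differed 4.003-fold, more than pair 2 did.

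Ccl7, a second Ccr2 ligand that also binds other receptors, measured 1945 and 55.6 FPKM within pair 1, and was at 346 and 194 FPKM within pair 2. It was 35.0-fold lower in pair 1, the widest difference of any chemokine here, and 1.78-fold lower in pair 2 (log2 difference -2.97, SE 1.03, unadjusted p = 0.0391 and adjusted p = 0.999 in limma with Benjamini-Hochberg). Its level among all genes moved from rank 139 to rank 6313 in pair 1 and from rank 1223 to rank 2258 in pair 2. Within each library Ccl2 exceeded Ccl7, by 1.74 and 2.45 times in WT replicates 1 and 2 and by 3.43 and 3.21 times in RBP-J KO, so that Ccl7 was reduced more than Ccl2 in both pairs.

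Ccl12, a Ccr2 ligand of mice, measured 363 and 66.0 FPKM within pair 1, and was at 102 and 80.7 FPKM within pair 2 (5.50-fold and 1.26-fold lower; log2 difference -1.39, SE 0.64, adjusted p = 0.999 in limma). The RBP-J KO libraries were close to each other and to WT replicate 2, and WT replicate 1 stood above the other 3. Ccl8, which in mice acts through Ccr8, was low, at 37.9 and 9.40 FPKM within pair 1 and at 6.05 FPKM and listed at 0 in pair 2. WT replicate 2 was below RBP-J KO replicate 1, so the groups overlapped (log2 difference on the log2(FPKM + 1) scale -2.36, SE 1.42, adjusted p = 0.999 in limma), and the fitted value depends on the pseudocount because of the 0.

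Ccl9 had the smallest p of the 10 chemokines and a large difference in both pairs. It encodes a ligand of Ccr1 that is abundant in mouse macrophages and osteoclasts, and had the highest mean level of the 10 over the 4 libraries. It measured 2081 and 366 FPKM within pair 1, and was at 2456 and 768 FPKM within pair 2, or 5.69-fold and 3.20-fold lower. The WT mean was 2268 ± 265 FPKM and the RBP-J KO mean 567 ± 284 FPKM (SD, n = 2), and every RBP-J KO value lay far below every WT value. The log2 difference was -2.09 (SE 0.40; unadjusted p = 0.00467, adjusted p = 0.585 in limma with Benjamini-Hochberg). It kept between -2.62 and -1.56 in all 13 alternative settings, which include leaving out each library.

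Ccl6, the neighbour of Ccl9 and another Ccr1 ligand, behaved differently between replicates. It measured 619 and 189 FPKM within pair 1, and was at 1934 and 1193 FPKM within pair 2, that is 3.28-fold and 1.62-fold lower. Both replicate 2 libraries were above both replicate 1 libraries, so the groups overlapped (log2 difference -1.20, SE 1.05, adjusted p = 0.999 in limma), and without RBP-J KO replicate 1 the difference turned to 0.12. The ratio of Ccl9 to Ccl6 was 3.36 against 1.94 in pair 1 and 1.27 against 0.64 in pair 2, lower in RBP-J KO in both pairs. The transcripts of Ccl9 and Ccl6 in GENCODE M21 share at most 25 bases in a row, the longest such stretch between any of the 10 genes.

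The 5′ flanks of Ccl9 and Ccl6, and that of Cxcl2 as a further window with a kappaB match, are shown because these neighbours differ in what a motif search found. The RefSeq promoter table (build GRCm38.p6) had windows for 6 of the 10 genes (Ccl3, Ccl6, Ccl8, Ccl9, Ccl12 and Cxcl2), each from 250 bases before to 50 after the start site. Below, 110 bases before to 20 after the start site are printed 5′ to 3′ on the strand of the gene, with matches to the searched motifs in capitals. The locations are chr11:83578617-83578746, minus strand, for Ccl9, chr11:83593068-83593197, minus strand, for Ccl6 and chr5:90903789-90903918, plus strand, for Cxcl2.
Ccl9: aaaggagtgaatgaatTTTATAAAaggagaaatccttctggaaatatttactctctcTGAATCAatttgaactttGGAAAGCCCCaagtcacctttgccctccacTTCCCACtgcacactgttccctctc
Ccl6: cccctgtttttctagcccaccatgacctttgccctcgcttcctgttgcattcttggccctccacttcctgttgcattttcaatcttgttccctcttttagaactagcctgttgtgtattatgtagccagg
Cxcl2: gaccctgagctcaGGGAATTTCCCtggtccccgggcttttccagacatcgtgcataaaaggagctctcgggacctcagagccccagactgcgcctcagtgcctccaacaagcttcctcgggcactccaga
Both strands were searched for the kappaB consensus, the RBP-J core GTGGGAA, the AP-1 site TGANTCA and the TATA box TATAAA. The Ccl9 window held the RBP-J core on the opposite strand from position -5 to 2, a kappaB match on the opposite strand from -35 to -26, an AP-1 match from -53 to -47, and overlapping TATA matches on both strands between -94 and -87. A further TATA match on the opposite strand, at -224 to -219, lies outside the printed stretch. The Ccl6 and Ccl3 windows held none of these motifs, which says only that these letters are not there. The Cxcl2 window held a kappaB match on each strand, overlapping, between -97 and -87, and the Ccl12 and Ccl8 windows held only a TATA box, at -31 to -26 and -32 to -27. Of all 32851 windows in the table, 6.38% held the RBP-J core, 4.51% the kappaB consensus, 7.81% the AP-1 site and 13.6% the TATA box. A match is a description of the letters and shows no binding.

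Ccl3 and Ccl4 varied least. Ccl3, a ligand of Ccr1 that attracts monocytes, measured 369.8 and 340.1 FPKM within pair 1, and was at 536 and 467 FPKM within pair 2, only 1.09-fold and 1.15-fold lower. Its groups overlapped (log2 difference -0.16, SE 0.29, adjusted p = 0.999 in limma), and the sign turned when either RBP-J KO replicate 1 or WT replicate 2 was dropped (0.07 and 0.11). Ccl4 measured 598 and 411 FPKM within pair 1, and was at 539.96 and 461 FPKM within pair 2 (1.45-fold and 1.17-fold lower; log2 difference -0.38, SE 0.18, adjusted p = 0.999 in limma). The WT and RBP-J KO values of Ccl4 did not overlap, at 569 ± 40.9 and 436 ± 35.4 FPKM (SD, n = 2). In the RefSeq annotation of GRCm38.p6 the spans of Ccl3 and Ccl4 overlap, and whether fragments were assigned by strand is not given in the sources used here.

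Set against Ccl3 of the same library, Ccl9 stood 5.63 and 4.58 times as high in WT replicates 1 and 2, and 1.08 and 1.64 times as high in RBP-J KO. This ratio does not depend on how a library was scaled, and its groups did not overlap. For Ccl2 the same ratio was 9.15 and 1.58 in WT and 0.56 and 1.33 in RBP-J KO, lower in both pairs but close between the replicate 2 libraries.

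Cxcl2, the Cxcr2 ligand that attracts neutrophils, was expressed at a low level throughout. It measured 15.0 and 13.3 FPKM within pair 1, and was at 20.15 and 11.5 FPKM within pair 2 (1.12-fold and 1.75-fold lower; log2 difference -0.46, SE 0.28, adjusted p = 0.999 in limma). The groups did not overlap, though the libraries of pair 1 were close. It is the only member of the CXC family among the 9 lower genes and the only member not on chromosome 11, being on chromosome 5.

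Cxcl16 was the only chemokine of the 10 that was higher in RBP-J KO in both pairs. It measured 777 and 1938 FPKM within pair 1, and was at 154 and 258 FPKM within pair 2, or 2.49-fold and 1.68-fold higher. WT replicate 1 was above RBP-J KO replicate 2, so the groups overlapped (log2 difference 1.03, SE 1.25, adjusted p = 0.999 in limma), and the sign turned when either RBP-J KO replicate 1 or WT replicate 2 was dropped (-0.42 and -0.13). The replicate number therefore separated the libraries more than the genotype did: WT replicate 1 was 5.05 times WT replicate 2. Zmynd15, whose span overlaps that of Cxcl16 in the RefSeq annotation, measured 26.7 and 113.6 FPKM within pair 1, and was at 3.03 and 7.40 FPKM within pair 2, higher in RBP-J KO in both pairs as well, and its part in the Cxcl16 value was not tested.

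**Figure D2:**
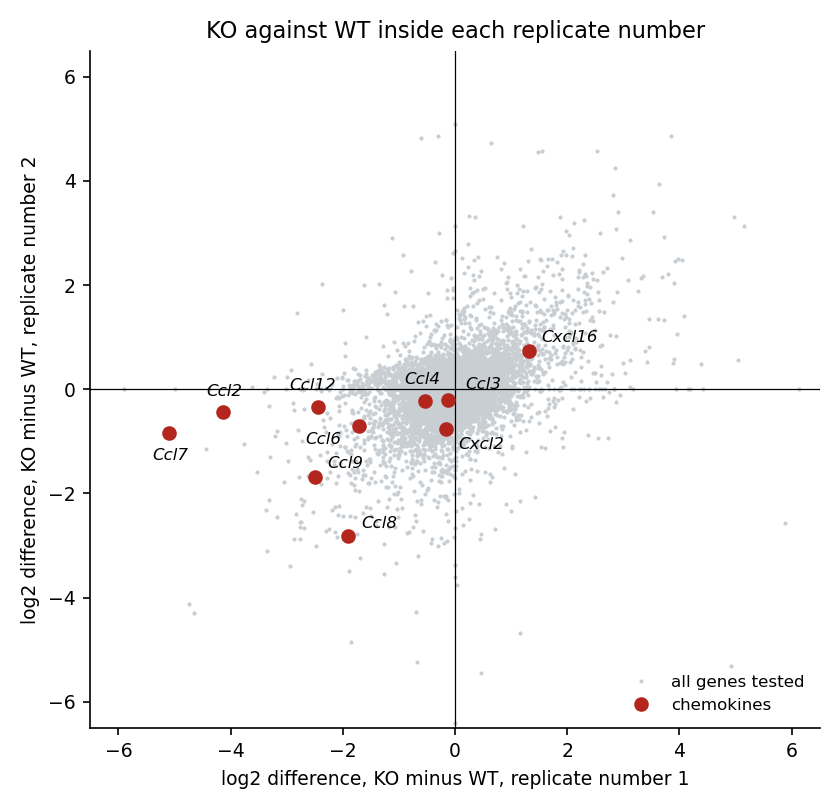
log2 difference of FPKM + 1 (RBP-J KO minus WT) in pair 1 (x axis) against pair 2 (y axis), with all 11851 genes tested as small grey points and the 10 chemokines in red; 1 gene lies outside the axes. The chemokines except Cxcl16 lie below and left of the origin, with Ccl7 and Ccl2 farthest to the left, at -5.11 and -4.14 in pair 1 against -0.83 and -0.44 in pair 2, and with Ccl9 and Ccl8 well below 0 on both axes.

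The order of abundance changed with library. By the mean of the 4 libraries, which are values per length, the order was Ccl9 (1417 FPKM), Ccl2 (1260.4 FPKM), Ccl6 (984 FPKM), Cxcl16 (782 FPKM), Ccl7 (635 FPKM), Ccl4 (503 FPKM), Ccl3 (428 FPKM), Ccl12 (153 FPKM), Cxcl2 (15.0 FPKM) and Ccl8 (13.3 FPKM). The ranges of neighbours in this order overlapped except between Ccl12 and Cxcl2. Ccl2 ranked 67 (WT) and 2485 (RBP-J KO) among all genes within pair 1, whereas Ccl4 kept between ranks 683 and 1047 in all libraries.

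The 10 chemokines summed to 10190.1 and 6938 FPKM in WT replicates 1 and 2 and to 3580 and 4055 FPKM in RBP-J KO. The sum was 2.85 times higher in WT in pair 1 and 1.71 times in pair 2, and the groups did not overlap. The make-up of the sum differed between replicates of 1 genotype as well as between genotypes. Ccl2, Ccl7, Ccl12 and Ccl8 together gave 56.2% and 8.98% of it for WT and RBP-J KO of pair 1, but 18.7% and 22.1% for pair 2. Ccl9 and Ccl6 together gave 26.5% and 15.5% in pair 1 and 63.3% and 48.3% in pair 2. Cxcl16 gave 54.2% in RBP-J KO replicate 1 and at most 7.63% in the other libraries, while Ccl3 and Ccl4 together took a larger share in RBP-J KO in both pairs (9.50% and 21.0% in pair 1, 15.5% and 22.9% in pair 2).

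**Figure D3:**
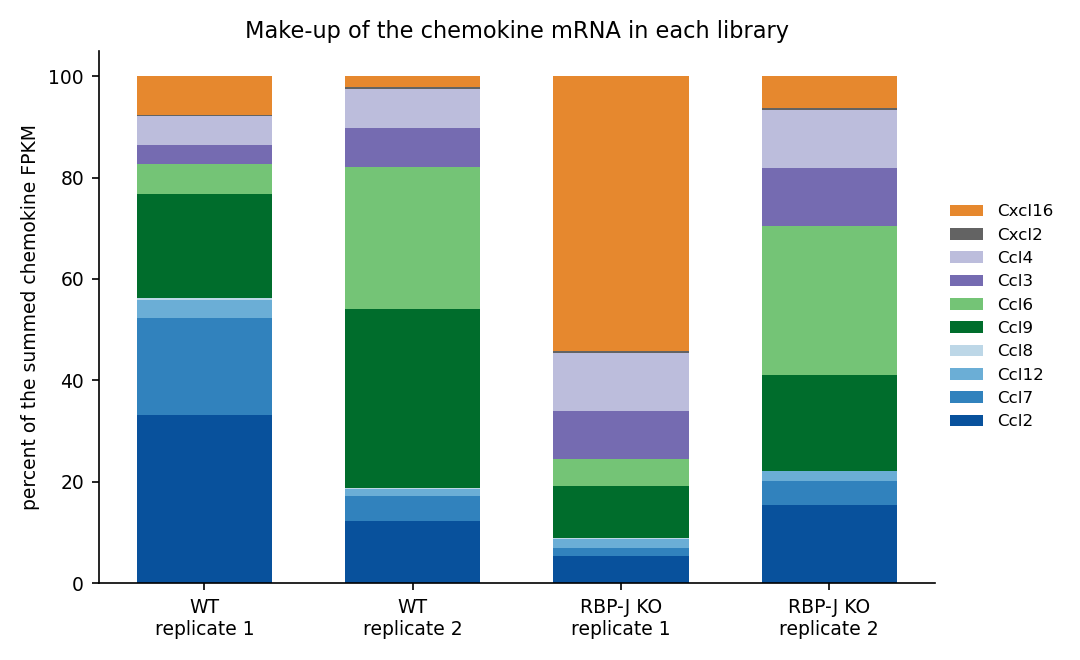
Share of each chemokine in the summed FPKM of the 10 (stacked bars, percent, 1 bar per library). The blue Ccl2, Ccl7, Ccl12 and Ccl8 fill 56.2% of the WT replicate 1 bar, the green Ccl9 and Ccl6 fill 63.3% of the WT replicate 2 bar, and the orange Cxcl16 fills 54.2% of the RBP-J KO replicate 1 bar.

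Position on chromosome 11 grouped genes of unequal behaviour. In the RefSeq gene order, Ccl2, Ccl7, Ccl11, Ccl12, Ccl8 and Ccl1 follow each other with no other protein-coding gene between them, and Ccl5, Ccl9, Ccl6, Ccl3 and Ccl4 form another such run after 25 further protein-coding genes. All 4 members in the first run were lower in RBP-J KO in both pairs, by 1.90 to 5.11 on the log2 scale in pair 1. In pair 2 Ccl2, Ccl7 and Ccl12 were lower by 0.33 to 0.83. Ccl8 was lower by 2.82 there, a value that depends on the pseudocount because RBP-J KO replicate 2 was listed at 0. Ccl11 and Ccl1 were listed at 0 in every library. In the second run Ccl9 and Ccl6 were lower by 1.71 to 2.50 in pair 1, next to Ccl3 and Ccl4, which were lower by 0.12 and 0.54. In pair 2 Ccl9 and Ccl6 were lower by 1.68 and 0.70, and Ccl3 and Ccl4 by 0.20 and 0.23. Ccl5, an attractant of T cells at the edge of that run, measured 20.3 and 442 FPKM within pair 1, and was at 9.87 and 14.2 FPKM within pair 2, higher in RBP-J KO in both. WT replicate 1 was above RBP-J KO replicate 2, so the groups overlapped for Ccl5.

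**Figure D4:**
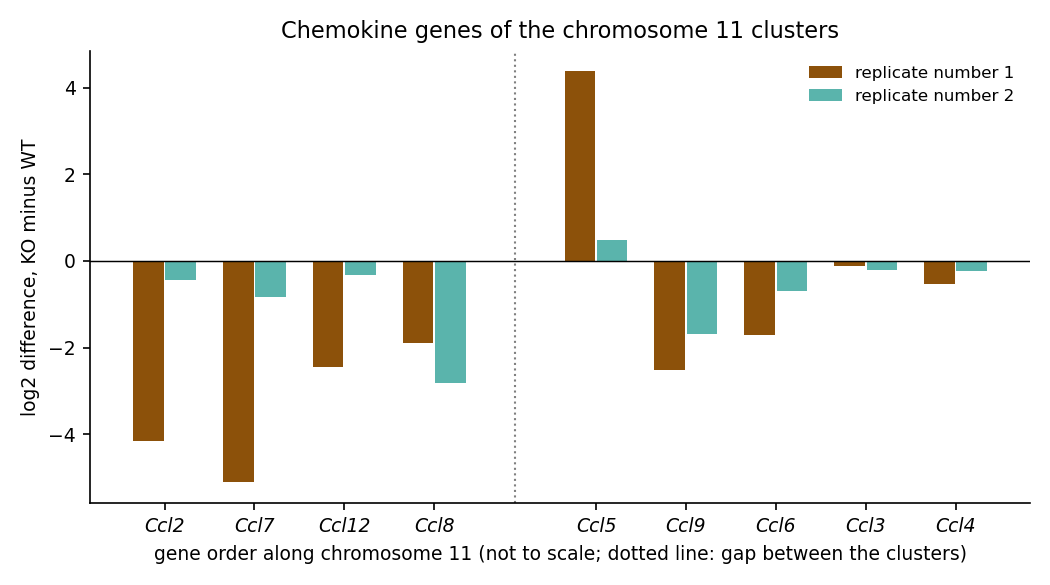
log2 difference of FPKM + 1 (RBP-J KO minus WT) for the measured chemokine genes of the chromosome 11 runs in their gene order (x axis, not to scale), with brown bars for pair 1 and teal bars for pair 2. Bars point down for Ccl2, Ccl7, Ccl12 and Ccl8, up for Ccl5, down for Ccl9 and Ccl6 and hardly at all for Ccl3.

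Among the chemokines, Ccl7 had the pattern closest to Ccl2: the root mean square distance between their log2(FPKM + 1) profiles over the 4 libraries, each centred on its mean, was 0.38. Of the 9003 other genes averaging 20 FPKM or more, the closest to Ccl2 were Lyzl4 (0.43), Npl (0.45) and Cdk20 (0.54). The closest to Ccl9 were Emp2 (0.14), Pmp22 (0.16) and Cacna1a (0.28), all closer than any chemokine, of which Ccl2 was nearest at 0.83. Emp2 measured 103 and 15.8 FPKM within pair 1, and was at 99.2 and 39.7 FPKM within pair 2, and Pmp22 at 2252 and 529 FPKM and at 2851 and 898 FPKM. With 4 libraries such likeness is only a description.

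Most of the chemokine receptors tested were higher in RBP-J KO in both pairs, some of them at values near 0. Of 18 chemokine receptor genes, 12 were tested and 0 passed over all genes, with 2 of them higher at an unadjusted p under 0.05 (background 2.19%), namely Ccr1 and Cx3cr1. In both pairs 8 were higher and 0 lower, against 25.1% and 34.1% of all genes, and 3 were at least 1.5-fold higher in both (Ccr1, Cx3cr1 and Cxcr2), against 3.86%. Of the 8, Ccr9, Cxcr2 and Xcr1 were near the floor in pair 2. They were at 0.42 and 0.50 FPKM, at 0 and 0.95 FPKM, and at 0 and 0.42 FPKM there. The median log2 difference was 0.82, beside -0.05 over all genes. Ccr1, the receptor of Ccl3, Ccl6 and Ccl9, measured 66.9 and 213 FPKM within pair 1, and was at 39.3 and 226 FPKM within pair 2, 3.19-fold and 5.76-fold higher with no overlap (log2 difference 2.08, SE 0.31, adjusted p = 0.488 in limma with Benjamini-Hochberg).

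Ccr2, through which Ccl2, Ccl7 and Ccl12 act, measured 123 and 253 FPKM within pair 1, and was at 94.5 and 105 FPKM within pair 2. Ccr3, a receptor of eosinophils that also binds Ccl7, was at 38.7 and 47.5 FPKM and at 6.17 and 17.95 FPKM. Ccr2 and Ccr3 were higher in RBP-J KO in both pairs, by between 1.11-fold and 2.91-fold, and the groups overlapped for both. Cxcr2, the receptor of Cxcl2, was low, at 7.46 and 11.9 FPKM within pair 1 and listed at 0 and at 0.95 FPKM in pair 2. Cxcr6, the receptor of Cxcl16, measured 1.18 and 3.81 FPKM within pair 1, and was listed at 0 in both libraries of pair 2, and Ccr8 was listed at 0 in all 4. Cx3cr1, the fractalkine receptor of patrolling monocytes, was at 303 and 845 FPKM and at 30.6 and 746 FPKM. Xcr1, a receptor of cross-presenting dendritic cells, stayed below 3 FPKM in every library.

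**Figure D5:**
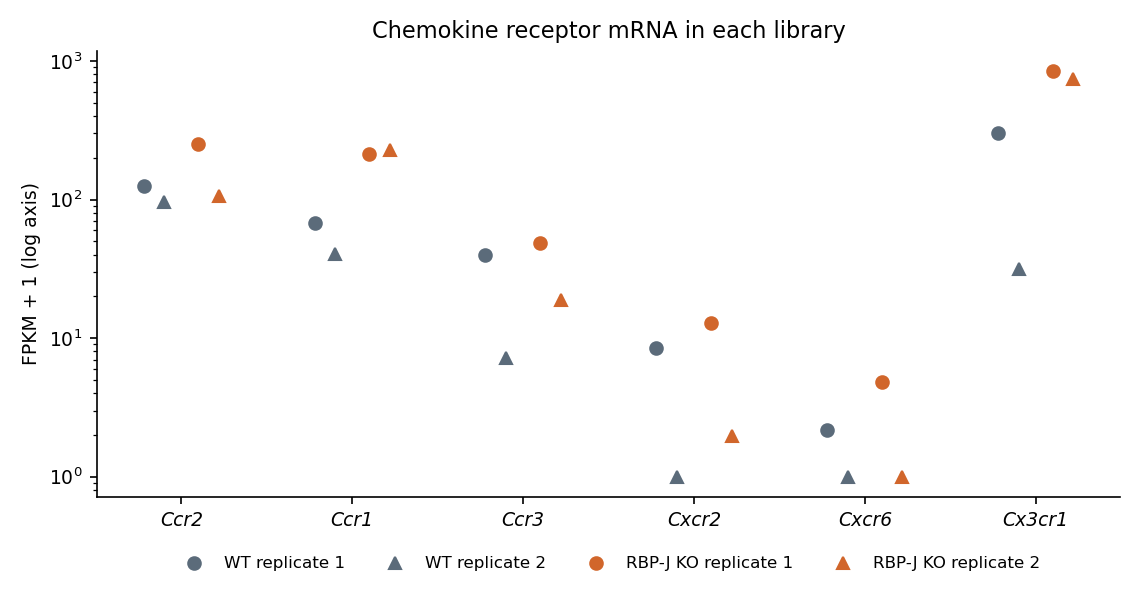
FPKM + 1 (log axis) of 5 known receptors of the chemokines and of Cx3cr1 in the 4 libraries, with grey WT and orange RBP-J KO points, circles for replicate 1 and triangles for replicate 2. Both orange points lie above both grey points for Ccr1 and Cx3cr1, while the points interleave for Ccr2 and Ccr3.

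Chemokine ligands outside the 10 were higher in RBP-J KO in both pairs more often than lower. Of 26 listed, 25 had an entry, 9 of these were listed at 0 in all libraries and 14 were tested. Of the 14, 0 passed in limma and 0 had an unadjusted p under 0.05; 6 were higher and 1 was lower in RBP-J KO in both pairs (25.1% and 34.1% of all genes), 3 of them at least 1.5-fold higher in both (3.86% of all genes), and the median log2 difference was 0.35. Another 5 had opposite signs in the pairs, where 39.4% of all genes did. Among these was the most abundant ligand of the list, Pf4, at 3031 and 2478 FPKM and at 3015 and 4297 FPKM. Pf4 is also counted in the erythroid and megakaryocyte list below. Cxcl14, a chemokine of epithelia and monocyte-derived cells, measured 127 and 204 FPKM within pair 1, and was at 59.3 and 136 FPKM within pair 2, with no overlap. Ccl22, a ligand of Ccr4, was at 1.91 and 10.4 FPKM and listed at 0 and at 0.99 FPKM. Cx3cl1, the ligand of Cx3cr1, was listed at 0 and at 1.17 FPKM within pair 1 and at 0.84 and 4.83 FPKM in pair 2. Ccl27a, which has near-identical copies in the mouse genome and is therefore uncertain, was at 2.52 and 29.5 FPKM and at 3.94 and 6.26 FPKM.

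The 16 tested subunits and inhibitors of NF-kB and AP-1 had a median log2 difference of 0.10, with 7 higher and 2 lower in both pairs, where 25.1% and 34.1% of all genes were. The 9 mRNA decay factors had a median of 0.01, with 3 higher and 1 lower in both pairs. None passed in limma. Nfkbiz, an inducible co-regulator of NF-kB, measured 22.0 and 69.3 FPKM within pair 1, and was at 12.4 and 21.5 FPKM within pair 2. Tnfaip3, the NF-kB inhibitor A20, was at 39.5 and 30.8 FPKM and at 31.0 and 16.7 FPKM, below WT in both RBP-J KO libraries. Nfkb1 and Relb were above WT in both RBP-J KO libraries, by 1.04-fold to 1.67-fold within pairs. Zfp36l1, which promotes decay of AU-rich mRNAs, measured 147 and 225 FPKM within pair 1, and was at 117 and 193 FPKM within pair 2, with no overlap (unadjusted p = 0.0305, adjusted p = 0.999 in limma). Zc3h12a, a ribonuclease that degrades inflammatory mRNAs, was at 19.0 and 33.4 FPKM and at 19.3 and 23.0 FPKM.

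Inducers of these chemokines were higher more often than lower. Of 18 tested inducer and input genes, 0 passed in limma and 1 (Irf1, higher) had an unadjusted p under 0.05 (background 2.19%). In both pairs 12 were higher and 1 lower (25.1% and 34.1% of all genes), with a median of 0.29. At least 1.5-fold higher in both were 4 (3.86% of all genes), of which Il1b and Il1a were listed at 0 in WT replicate 2. Il1b measured 2.83 and 57.1 FPKM within pair 1, and was listed at 0 and at 4.48 FPKM in pair 2, and Il1a at 1.24 and 8.83 FPKM and listed at 0 and at 1.40 FPKM. Irf1, an interferon-induced transcription factor, was at 136 and 361 FPKM and at 144 and 239 FPKM, with no overlap. Il6 and Ifnb1 were listed at 0 in all libraries.

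Proteases that cut chemokines or release Cxcl16 had a median of 0.38 over 9 genes, with 6 higher and 1 lower in both pairs (25.1% and 34.1% of all genes) and 0 passing. Mmp14, a membrane protease that can cleave chemokines, measured 47.7 and 628 FPKM within pair 1, and was at 3.18 and 17.8 FPKM within pair 2. Mmp12, the macrophage elastase, was at 586 and 808 FPKM and at 167 and 815 FPKM. Dpp4, which trims chemokine ends, stayed at or below 6.02 FPKM. In the list of receptor signalling, 20 genes had a median of 0.07, with 6 higher and 5 lower in both pairs (25.1% and 34.1% of all genes) and 0 passing. Rgs18, which shortens G protein signals, was at 251 and 44.3 FPKM and at 203 and 24.4 FPKM, and Rgs1, an inducible relative, at 172 and 411 FPKM and at 69.7 and 151 FPKM. Of the 9 listed names of atypical receptors, 5 had an entry and 2 were tested, with a median of 0.31 and 0 passing.

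Markers of other cell types differed between the libraries beside these values, and their part in any chemokine value was not tested. Of 11 neutrophil markers, 8 were higher and 0 lower in RBP-J KO in both pairs (25.1% and 34.1% of all genes). Ltf, Ngp and Mmp8 were lower in RBP-J KO in pair 1 and higher in pair 2. The 8 dendritic cell markers summed to 13.6 and 12.7 FPKM in WT replicates 1 and 2 and to 87.6 and 18.2 FPKM in RBP-J KO, with Ccr7 at 32.0 FPKM in RBP-J KO replicate 1, the library in which Cxcl16 and Ccl5 were highest, and at 0.81 FPKM or listed at 0 elsewhere. Summed T and NK cell markers reached 28.4 FPKM in RBP-J KO replicate 1, were 10.1 FPKM in WT replicate 1 and were listed at 0 in replicate 2, and mast cell and basophil markers were at most 31.4 FPKM. The 10 stromal and endothelial markers summed to 53.9 and 8.52 FPKM in WT and to 139 and 21.1 FPKM in RBP-J KO. Of the 5 tested, 3 were higher and 2 lower in both pairs (25.1% and 34.1% of all genes). Most of the sum was Kdr, a receptor of endothelial cells, at 36.2 and 114 FPKM in pair 1 and 6.20 and 17.2 FPKM in pair 2. The collagen genes Col1a1 and Col1a2 of stromal cells were at or below 2.47 FPKM in every library and lower in RBP-J KO in both pairs, and Lepr and Dcn were listed at 0 throughout. The 8 B cell markers summed to between 127 and 355 FPKM, mostly Blnk, with Vpreb1 and Igll1 listed at 0 throughout. Of the 5 tested, 1 was higher and 1 lower in both pairs (25.1% and 34.1% of all genes). Blnk was the lower, at 336 and 314 FPKM in pair 1 and 286 and 101 FPKM in pair 2. Cd79b was the higher, at 9.90 and 20.7 FPKM and at 6.93 and 25.95 FPKM, with no overlap (unadjusted p = 0.00798, adjusted p = 0.671 in limma). The erythroid and megakaryocyte list summed to between 2817 and 4324 FPKM, most of it Pf4, with Alas2 and Klf1 listed at 0. Of the 10 macrophage markers, 4 were lower and 3 higher in both pairs (34.1% and 25.1% of all genes). The 3 higher were Aif1, Mertk and Fcgr1. Aif1 measured 618 and 1752 FPKM within pair 1, and was at 260 and 946 FPKM within pair 2, with no overlap, while Mertk and Fcgr1 overlapped. Among the 4 lower, Cd14, which binds lipopolysaccharide, measured 1715 and 764 FPKM within pair 1, and was at 1569.6 and 799.7 FPKM within pair 2. Lyz2, the locus that carries the Cre, was at 218 and 94.3 FPKM and at 192 and 115 FPKM. In bulk RNA, fewer cells of a type and less RNA per cell cannot be told apart.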

How the data were processed

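RNA was measured in 4 libraries, 2 per group, grouped and numbered by the sample titles. TopHat, Cufflinks and the mouse build mm9 are named in the submitters' processing notes; for their versions, the annotation and the strand setting, nothing is given in the sources used here. Values the authors deposited were read as FPKM, the unit Cufflinks writes, since the file headers name no unit. No steps of whole reads were found among low values, which leaves depth unknown, and counting intervals were therefore not given. Replicate 1 tables list 22026 genes; replicate 2 tables list 27583 transcripts, summed per symbol here, with 25 symbols turned into dates restored through their descriptions. Each chemokine has 1 transcript entry.

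The test was limma 3.58.1 (R 4.3.3) with a variance trend on log2(FPKM + 1) on the 11851 genes averaging 1 FPKM or more, two-sided, with group as its only term. Genes that are low or near 0 have understated fold changes on this scale. Folds within pairs are ratios of FPKM; the 1.5-fold counts use log2(FPKM + 1). The script was tested on simulated data. Chemokine members and gene lists were chosen with earlier results of these data known. Named genes are the 10 chemokines, Rbpj, up to 5 genes per list ranked by the smaller within-pair difference among genes of 1 sign, the known receptors and, for Ccl2 and Ccl9, the 3 most alike genes. Ccl1, Ccl11, Ccr7, Zmynd15, Csf1r, Cd68, Pf4 and the genes listed at 0 were added after their values were seen, and some genes the rule allows are not reported here, though the counts over lists include them. Promoter sequences are from RefSeq (GRCm38.p6), not the build of the files, so no other coordinates are given. Alternatives covered pseudocount, filter, scaling, transcript choice, variance model, replicate block and leaving out each library.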

Additional observations from a re-analysis of the deposited data

How the results depend on the processing

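No gene of the whole table had an adjusted p under 0.05 in limma in any setting with all 4 libraries. The count of 0 chemokines therefore says nothing about stability. In these settings 2 chemokines were at an unadjusted p under 0.05 in limma, except with the replicate block. With a library left out, its group has 1 library, assumed to vary like the other group. With the replicate number as a replicate block the count was again 0 of 10, and the smallest chemokine adjusted p in limma was 0.0916, for Ccl9. There 5 chemokines were at an unadjusted p under 0.05, but so were 1557 of the 11851 genes, against 524 genes in the main fit. The labels do not say what equal replicate numbers share, though table layout goes with the number; over 11851 genes the deviations of same-numbered libraries from their group means had a correlation of 0.64. The direction of Ccl2, Ccl4, Ccl7, Ccl8, Ccl9, Ccl12, Cxcl2 and Rbpj held in all 13 alternatives. Leaving out RBP-J KO replicate 1 turned Ccl3 (0.07), Ccl6 (0.12) and Cxcl16 (-0.42), and leaving out WT replicate 2 turned Ccl3 (0.11) and Cxcl16 (-0.13); each of these fits sets libraries of unlike number against each other. Over the 4 fits that leave out a library, Ccl3 ranged from -0.43 to 0.11, Ccl6 from -2.53 to 0.12, Cxcl16 from -0.42 to 2.48 and the median of the 10 from -1.21 to -0.89. The pseudocount moved Ccl8, which is listed at 0 in RBP-J KO replicate 2, from -3.97 (0.1) to -0.99 (10). The count of chemokines at least 1.5-fold apart in both pairs was 4 under quantile normalization, against 5; it could not be made without a library.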
